A study of Mus musculus with 6 samples.

Results

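The clustered histone genes of the mouse were compared between satellite cells, which are muscle stem cells, of Adult and Young mice. Probes were taken where the array design names a gene Hist1h, Hist2h, Hist3h or Hist4h, control spots left aside. This gave 54 of the 55681 probes on the array, for 49 genes, and 44 of these genes were among the 32068 genes tested.

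Satellite cells lie along muscle fibres and regenerate them. Here they came from male C57BL/6 mice and were sorted as positive for integrin alpha7 and CD34 and negative for the lineage markers CD31, CD45, CD11b and Sca1. The Adult group held 3 samples from mice of 6 months, and the Young group held 3 samples, with replicates 1, 2 and 3 from mice of 3, 2 and 3 months. The RNA of each sample was amplified by a whole-transcriptome method meant for very few cells and was hybridised to 1 single-colour array. The labels call the samples biological replicates without saying how many mice stood behind each, so the p-values measure the spread between these samples. No allele, injury or treatment was named for either group.

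Histones are the proteins around which DNA is wound: H2A, H2B, H3 and H4 form the core of the nucleosome, and H1, the linker histone, binds where DNA enters and leaves it. The clustered genes are mostly transcribed while a cell copies its DNA, and their typical mRNA ends in a conserved stem-loop in place of a poly(A) tail. Some of them also give longer, polyadenylated transcripts that run past the stem-loop. The stem-loop is bound by the protein SLBP, and its 3' side is where the pre-mRNA is trimmed.

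Probes of 60 bases lie at different places of these short transcripts, and the values below differ by place, so the sequences are shown first. The 1st set consists of probes for 4 H2A genes that all start at base 333 of their transcripts in the design file and end with a stop codon. Capitals mark the 10 of 60 positions at which the 4 probes are not all alike.
Hist1h2af: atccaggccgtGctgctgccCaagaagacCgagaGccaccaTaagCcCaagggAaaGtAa
Hist1h2ak: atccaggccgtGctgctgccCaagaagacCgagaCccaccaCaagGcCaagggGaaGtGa
Hist1h2an: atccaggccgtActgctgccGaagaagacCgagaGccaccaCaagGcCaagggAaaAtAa
Hist2h2aa2: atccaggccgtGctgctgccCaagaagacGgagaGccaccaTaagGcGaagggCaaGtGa
On mouse build mm9 they lie at chr13:23626113-23626172 (plus strand), chr13:21845304-21845363 (minus strand), chr13:21878695-21878754 (minus strand) and chr3:96049837-96049896 (plus strand). Any 2 of them differ at 5 to 8 bases, so their signals may hold RNA of several H2A genes.

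The second set consists of probes that reach into the stem-loop, shown as windows of 30 bases with the stem-loop in capitals. These are the 6 that could be tested here. Of them, 1 passed the threshold used below, against 28.5% of all genes called either way.
Hist1h2ab: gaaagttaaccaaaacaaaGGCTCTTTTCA
Hist1h4m: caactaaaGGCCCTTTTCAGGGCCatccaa
Hist1h3g: cactttaaaGGCTCTTCTTAGAGCCaccca
Hist1h3i: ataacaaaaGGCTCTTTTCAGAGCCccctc
Hist2h2bb: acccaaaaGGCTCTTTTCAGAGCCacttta
Hist2h2aa1: taaaaaGGCTCTTTTCAGAGCCacccactg
The Hist1h2ab probe (chr13:23843392-23843451, plus strand) ends inside the stem-loop, with 49 bases before it. The Hist1h4m probe (chr13:21903960-21904019, plus strand) and the Hist2h2bb probe (chr3:96074056-96074115, plus strand) each hold the whole stem-loop of 16 bases, with 38 bases before it and 6 after. The Hist2h2aa1 probe (chr3:96049949-96050008, plus strand) begins only 6 bases before the stem-loop and runs 38 bases past it.

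All values below are log2 of the processed signal minus the 75th percentile of the array, and each difference is Adult minus Young. The number of arrays limits their precision. Probes well above local background numbered 47585 to 49965 on the Adult arrays and 41531 to 45929 on the Young arrays. Values correlated across genes at 0.944 to 0.960 within groups and at 0.849 to 0.933 between groups.

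Detection of the histone probes did not separate the groups. On Adult arrays 1, 2 and 3, a signal well above background was found for 45, 45 and 47 of the 54 probes, and on Young arrays 1, 2 and 3 for 45, 48 and 46. On all 6 arrays 41 probes were detected, and 11 on some of them. The probes of Hist1h1d, a linker histone gene, and Hist1h2ae, an H2A gene, were detected on none. Of the 32 probes sorted as transcript body, mostly before the stem-loop, 31, 31 and 32 were detected in Adult and 32, 32 and 31 in Young. Of the 8 stem-loop probes, 3, 5 and 4 were detected in Adult and 6, 6 and 5 in Young.

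Histone signal was mostly lower in Adult. Of the 44 genes tested, 23 were lower and 1 was higher in Adult at an adjusted p under 0.05 (limma, Benjamini-Hochberg over all genes), and 20 did not pass. Over all 32068 genes, 8.44% were called lower and 20.0% higher in Adult, and 28.5% either way, so the 52.3% of histone genes called lower stood against 8.44%. The split over all genes depended on the scaling, with 6426 higher and 2708 lower in Adult here, 3445 higher and 8809 lower after median scaling, and 2867 higher and 2750 lower after quantile normalization. The histone genes lower in Adult numbered 30 after median scaling and 25 after quantile normalization. The median difference of the 44 genes was -1.07, against 0.30 over all genes, and 36 of the 44 differences were negative. These are RNA levels of bulk samples, in which fewer cells of a type and less RNA per cell cannot be told apart.

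The 3 Adult values lay below the 3 Young values for each of the 23 genes called lower. Groups did not overlap in this way for 25 of the 44 genes, against 21.6% of all genes. The opposite order, with each Adult value above each Young value, held for 4 histone genes and for 34.0% of all genes. Without Adult replicate 1, 2 or 3 no histone gene passed as lower, and without Young replicate 1 only 1 did. Without Young replicate 2, or without Young replicate 3, 20 passed. Over all 32068 genes, 2708 were called lower in Adult with all arrays. That count fell to 45, 135 and 22 without Adult replicate 1, 2 or 3. It fell to 135, 1260 and 310 without Young replicate 1, 2 or 3. In each of these 6 fits the unadjusted p (limma) of each of the 23 genes was under 0.05. It was so for 11841 to 13864 of all 32068 genes. The 23 genes were chosen on these same arrays, so this follows in part from that choice and is no separate support.

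**Figure D1:**
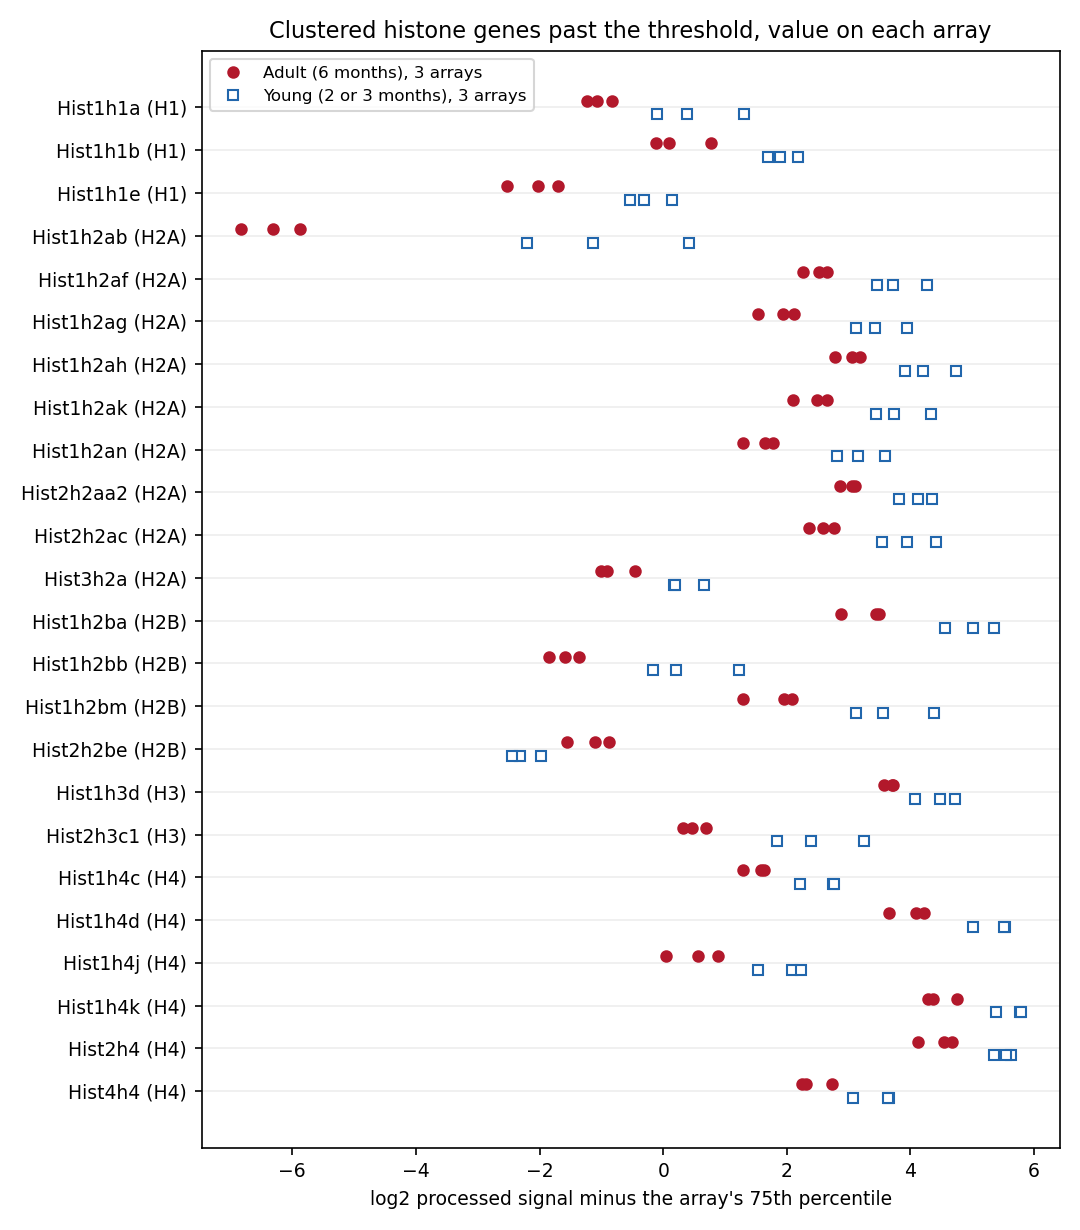
Each point is 1 array's log2 processed signal minus that array's 75th percentile, for the 24 clustered histone genes past the threshold, with Adult as filled circles above Young as open squares in each row. The 3 Adult points lie left of the 3 Young points in 23 rows, and right of them for Hist2h2be.

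By type, the calls were uneven. H2A had 9 of 13 tested genes lower in Adult, H4 had 6 of 9, H1 had 3 of 5, H3 had 2 of 6 and H2B had 3 of 11. Over all genes 8.44% were lower. Some H2A and H4 probes share a stretch of 20 bases with other histone probes, so these are not counts of independent genes. The median difference was -1.57 for H1, -1.28 for H2A, -1.08 for H4, -0.81 for H3 and -0.34 for H2B. The sole gene called higher, Hist2h2be, is of the H2B type. Whether the types differ from one another was not tested, and the types differ in where their probes lie.

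**Figure D2:**
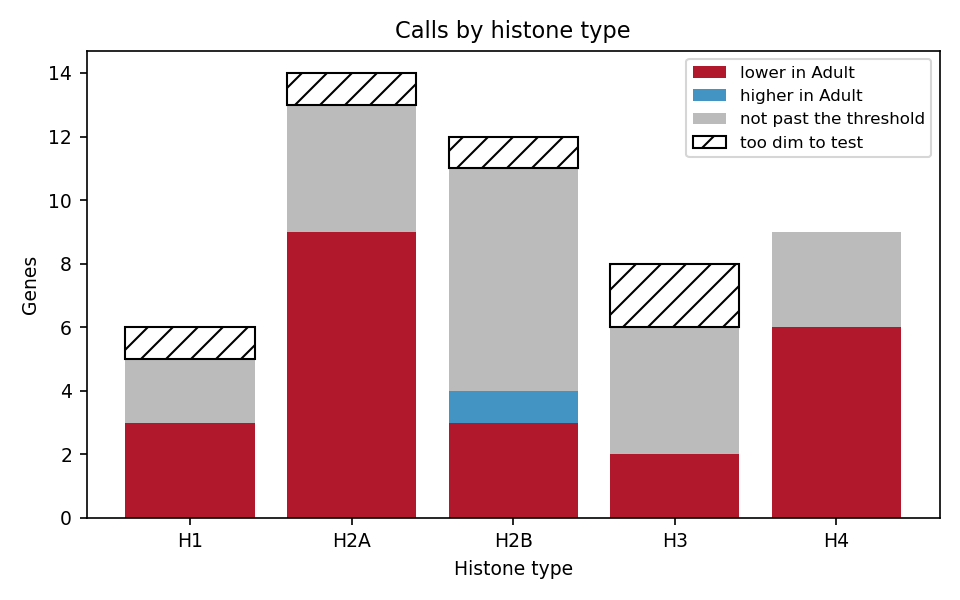
Bars count the clustered histone genes of each type that were lower in Adult, higher in Adult, not past the threshold, or too dim to test. H2A has the most genes lower in Adult (9) and H2B the most tested genes that did not pass (7).

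Among the linker histones, Hist1h1e (H1f4) had the most negative difference. Its values were -2.53, -1.70 and -2.03 in Adult and -0.31, 0.14 and -0.54 in Young. The groups did not overlap, with Adult replicate 1 lowest and Young replicate 2 highest. The difference was -1.85 ± 0.30 (SE, limma, n = 3 each, adjusted p = 0.0210), or 3.60-fold lower. Hist1h1b (H1f5) was at -0.11, 0.09 and 0.78 in Adult and at 1.89, 2.19 and 1.70 in Young. It too was lower on each Adult array, by -1.67 ± 0.29 (adjusted p = 0.0228).

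Hist1h1a (H1f1) was at -1.06, -1.23 and -0.83 in Adult and at 0.39, 1.31 and -0.10 in Young. Its Adult values lay close together and its Young values were spread, with a difference of -1.57 ± 0.38 (adjusted p = 0.0349). Hist1h1c (H1f2), read by a probe past the coding part, was at 0.60, 0.04 and 0.18 in Adult and at 0.72, 0.43 and 0.45 in Young. Those ranges overlapped, and the difference of -0.26 ± 0.22 did not pass (adjusted p = 0.377). Hist1h1t (H1f6), the linker histone of male germ cells, lay the other way at -0.71, -0.65 and -0.16 in Adult and -1.37, -1.14 and -1.14 in Young. Its groups did not overlap, but the difference of 0.71 ± 0.22 missed the threshold (adjusted p = 0.0566).

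The H2A genes held the lowest difference of all. Hist1h2ab (H2ac4) was at -6.31, -6.83 and -5.88 in Adult and at -1.13, 0.42 and -2.21 in Young. It was not well above background on any Adult array and was so on all 3 Young arrays. The signal was at least 19.9-fold lower in Adult, set against the dimmest signal counted as above background (fitted difference -5.37 ± 0.68, adjusted p = 0.0152).

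The other H2A genes called lower changed by less and by similar amounts. Hist1h2ag (H2ac11) was at 1.54, 1.94 and 2.12 in Adult and at 3.43, 3.95 and 3.11 in Young, without overlap. The differences of these genes ran between -1.63 for Hist1h2ag (adjusted p = 0.0229) and -1.08 for Hist2h2aa2 (H2ac19, adjusted p = 0.0258). The files place the Hist1h2ag probe at chr13:23666685-23726365 (plus strand, mm9), a span far longer than the probe. The promoter of H2ac11 lies elsewhere, at chr13:22042900-22043199 (minus strand, GRCm38.p6), so this signal cannot be credited to Hist1h2ag with certainty. The 4 probes printed above gave -1.33 for Hist1h2af, -1.42 for Hist1h2ak, -1.61 for Hist1h2an and -1.08 for Hist2h2aa2. Hist1h2an (H2ac22) was at 1.30, 1.65 and 1.77 in Adult and at 3.16, 3.59 and 2.81 in Young, so the highest Adult array stood about 1 unit below the lowest Young array. The difference was -1.61 ± 0.27 (adjusted p = 0.0217). Hist1h2ah (H2ac12) differed by -1.28 (adjusted p = 0.0278) and Hist2h2ac (H2ac20) by -1.40 (adjusted p = 0.0260). These probes cannot be read as independent genes, since the probe of Hist1h2ah shares a stretch of 20 bases with 8 other probes on the array and that of Hist1h2af with 7. Hist1h2ak has a second probe at the very start of its transcript that shares no such stretch. It was at -0.91, 0.00 and 0.05 in Adult and at 1.46, 1.07 and 0.43 in Young. Those groups did not overlap either, and the difference was -1.27 ± 0.39 (adjusted p = 0.0590 in the fit of every probe). In that fit, 24 of 48 histone probes were lower in Adult and 1 was higher, against 6.4% lower and 17.1% higher among all probes.

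Hist3h2a (H2aw), on chromosome 11 and away from the large cluster, was at -0.46, -0.91 and -1.01 in Adult and at 0.65, 0.17 and 0.19 in Young. Groups did not overlap, with a difference of -1.13 ± 0.25 (adjusted p = 0.0292). Its probe starts past base 500 of the transcript. The 4 H2A genes that did not pass were Hist1h2aa (testis H2A), Hist1h2ac, Hist2h2aa1 and Hist2h2ab, with differences between -0.51 and 0.54. The files place the Hist2h2aa1 probe (chr3:96049949-96050008) just past that of Hist2h2aa2 (chr3:96049837-96049896), on the same strand. The RefSeq promoters of these genes lie on opposite strands. The differences of -0.39 for Hist2h2aa1 and -1.08 for Hist2h2aa2 may thus come from the same gene, and the call cannot be credited to Hist2h2aa2 alone.

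The H2B genes split. Hist1h2bm (H2bc14) was at 1.29, 2.08 and 1.96 in Adult and at 3.55, 4.38 and 3.12 in Young. Hist1h2bb (H2bc3) was at -1.35, -1.59 and -1.85 in Adult and at 0.21, 1.23 and -0.17 in Young. In neither did the groups overlap, and in both Young replicate 2 was the highest array. Their differences were -1.91 ± 0.39 (adjusted p = 0.0275) and -2.02 ± 0.39 (adjusted p = 0.0255), and Hist1h2bb was 4.06-fold lower. Hist1h2ba (H2bc1), which encodes the testis H2B, was at 2.87, 3.44 and 3.50 in Adult and at 5.01, 5.36 and 4.56 in Young. It did not overlap between groups, with a difference of -1.71 ± 0.29 (adjusted p = 0.0223). Hist1h2ba was the brightest H2B gene tested and is read in the transcript body. Its probe shares no stretch of 20 bases with another probe on the array, but whether it also reads RNA of other H2B genes was not tested.

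Hist2h2be (H2bc21), known in mouse as a variant H2B gene of olfactory neurons, was at -1.11, -1.55 and -0.88 in Adult and at -1.97, -2.32 and -2.44 in Young. Each Adult array lay above each Young array. The difference was 1.06 ± 0.25 (adjusted p = 0.0334), 2.09-fold higher. This call was lost with median scaling, quantile normalization, cyclic loess and the block for array row, and also without any 1 of the 6 arrays. Hist1h2be (H2bc6) was at -0.47, -0.01 and -0.34 in Adult and at -0.78, -1.70 and -1.15 in Young. It had the same order without passing, at 0.94 ± 0.29 (adjusted p = 0.0561). Hist1h2bg (H2bc8) had the opposite order, at -2.54, -3.06 and -2.84 in Adult and -1.56, -1.52 and -2.41 in Young, with a difference of -0.99 ± 0.31 (adjusted p = 0.0574). Hist1h2bc (-0.13, adjusted p = 0.626) and Hist2h2bb (0.00 ± 0.30, adjusted p = 0.996) did not pass. Hist1h2bq had the highest difference of all members, 1.39, but with an SE of 1.23 (adjusted p = 0.390).

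For H3, Hist2h3c1 (H3c14) was at 0.32, 0.47 and 0.69 in Adult and at 2.40, 3.25 and 1.84 in Young. The Young arrays were all above the Adult arrays, and the difference was -2.0 ± 0.38 (adjusted p = 0.0251). Hist1h3d (H3c4) was at 3.70, 3.72 and 3.57 in Adult and at 4.48, 4.72 and 4.07 in Young. Its difference of -0.76 ± 0.22 lay at the threshold (adjusted p = 0.050), and it passed under 6 of the 20 other settings tried. Hist1h3c, Hist1h3f, Hist1h3g and Hist1h3i did not pass, at -0.34, -0.85, -1.11 and 0.25. The probe of Hist1h3a was above background on 1 Adult and no Young array and was not tested.

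H4 genes encode the same or nearly the same protein, and of 7 tested with a probe that lies before the stem-loop 6 were lower in Adult. Hist1h4k (H4c12) was at 4.29, 4.76 and 4.37 in Adult and at 5.77, 5.78 and 5.38 in Young. No array of one group reached the other, and the difference was -1.17 ± 0.23 (adjusted p = 0.0252). Its second probe, nearer the start, gave -1.46 ± 0.29 (adjusted p = 0.0288 in the fit of every probe). Hist1h4d (H4c4) was at 3.65, 4.22 and 4.09 in Adult and at 5.53, 5.51 and 5.01 in Young. Its groups did not overlap, with a difference of -1.37 (adjusted p = 0.0245). Hist1h4j (H4c11) differed by -1.45 (adjusted p = 0.0282) and Hist1h4c (H4c3) by -1.08 (adjusted p = 0.0287). Hist2h4 (H4c14), on chromosome 3, differed by -1.06 (adjusted p = 0.0275), with -0.72 for its second probe (adjusted p = 0.233). Hist4h4 (H4f16), the lone gene of its cluster on chromosome 6, was at 2.25, 2.73 and 2.31 in Adult and at 3.66, 3.64 and 3.08 in Young. It did not overlap between groups and differed by -1.03 (adjusted p = 0.0355).

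A second Hist4h4 probe, starting at base 1784 of the transcript, was detected on 2 Adult and no Young arrays and was not tested, and its groups overlapped. For Hist1h4i (H4c9) the brightest probe, which the files place nowhere in the genome, was at 7.48, 7.31 and 7.44 in Adult and at 7.17, 6.94 and 6.99 in Young. It gave 0.38 ± 0.17 (adjusted p = 0.134), and its sign turned under median scaling and quantile normalization. The probe of the same gene that the files do place was at -0.08, 0.64 and 0.25 in Adult and at 1.28, 2.04 and 1.53 in Young. That probe gave -1.35 ± 0.30 (adjusted p = 0.0329 in the fit of every probe), and with the unplaced probes left out 24 histone genes were lower in Adult. Hist1h4h did not pass (-0.04, adjusted p = 0.883).

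The probes were also sorted by their place in the transcript. The places were chosen after the values had been seen, so no test of them is given. Transcript-body probes begin before base 500 of the transcript (before base 1000 for H1, whose coding part is longer) and hold no stem-loop. A stem-loop was counted if whole, or if at least 10 of its bases lay at an end of the probe. The end of the Hist1h1t probe (difference 0.71) resembles the start of a stem-loop but did not meet this rule, so its place is uncertain. Some transcript-body probes begin before the start codon. Among these, that of Hist1h2bb was called lower, and those of Hist1h3c, Hist1h3f, Hist1h4h and Hist3h2bb-ps did not pass. Many others read the end of the coding part, like the 4 H2A probes printed above. Of 28 genes tested with a transcript-body probe, 21 were lower in Adult and none was higher, against 8.44% and 20.0% of all genes. Among the 28, 27 differences were negative, with a median of -1.31. They spanned the types, with 3 of 4 H1, 7 of 9 H2A, 3 of 4 H2B, 2 of 4 H3 and 6 of 7 H4 genes lower. Among transcript-body probes for which the design lists more than 1 RefSeq transcript, 12 of 12 genes were lower, and among those that list a single one, 9 of 16.

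Probes farther along begin at or past base 500 (base 1000 for H1). Of 9 genes tested there, 1 was lower (Hist3h2a) and 1 was higher (Hist2h2be), against 8.44% and 20.0% of all genes, and the median was -0.13. Of 6 genes tested with a stem-loop probe, Hist1h2ab alone was called, against 28.5% of all genes called either way, and the median was -0.75. The nearest miss was Hist1h4m (H4c17), at -4.77, -4.07 and -5.35 in Adult and -3.07, -2.55 and -3.88 in Young. These ranges did not overlap, but only 1 Adult array was above background and the difference of -1.56 ± 0.46 stayed outside the threshold (adjusted p = 0.0508). The remaining stem-loop probes lay between -1.11 for Hist1h3g and 0.25 for Hist1h3i. Of the probes farther along 6 of 12 were detected on all 6 arrays, of the stem-loop probes 3 of 8 and of the transcript-body probes 31 of 32.

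**Figure D3:**
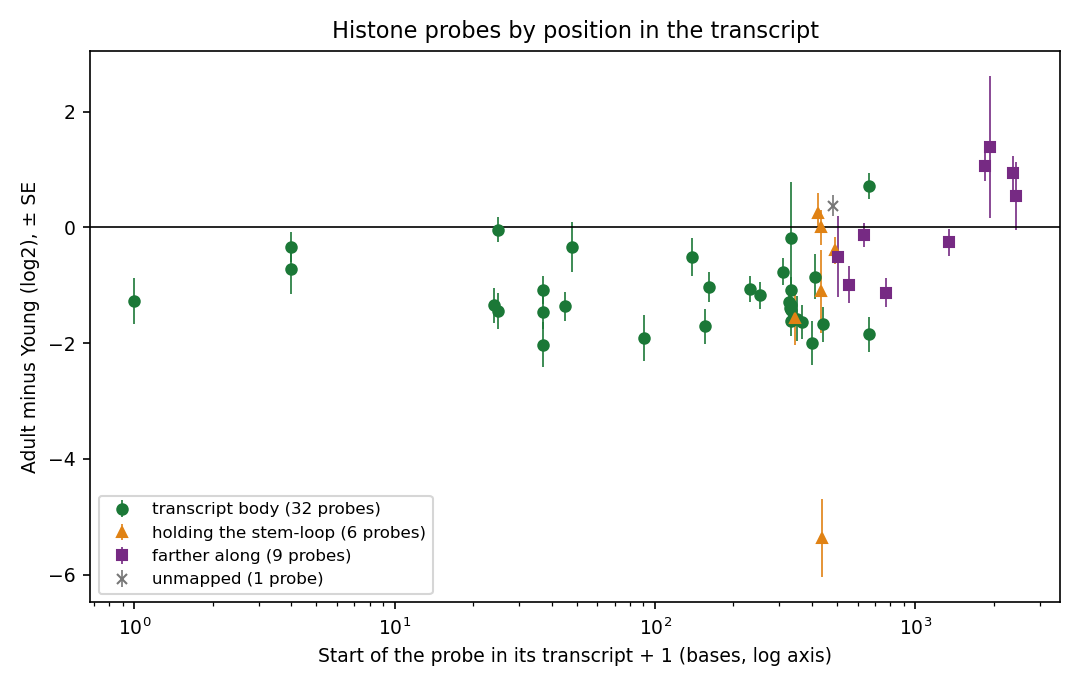
Each point is 1 histone probe, placed by its start in the transcript (log axis, in bases plus 1) and by its Adult minus Young difference (log2) in the fit of every probe, with bars of 1 SE. Transcript-body probes lie mostly between -2.02 and -0.76, while probes far along the transcript scatter around 0, up to 1.39.

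The clusters could be compared only loosely, since most genes lie in 1 of them. Over all genes 8.44% were lower and 20.0% higher in Adult. In the Hist1 cluster on chromosome 13, 17 of 33 tested genes were lower in Adult and none was higher (median -1.11). In the Hist2 cluster on chromosome 3, 4 of 8 were lower and 1 was higher (median -0.73). Of the Hist3 genes 1 of 2 was lower, and the 1 Hist4 gene was lower.

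Young replicates were not alike in histone signal. Of the 23 genes called lower in Adult, Young replicate 2 was the highest Young array for 19 and Young replicate 3 the lowest for 22. Adult replicate 1 was the lowest Adult array for 18. Over the 28 genes with transcript-body probes, the median deviation from each gene's mean was -0.86, -0.60 and -0.50 on Adult arrays 1, 2 and 3 and 0.69, 1.04 and 0.29 on Young arrays 1, 2 and 3. Young replicate 2 is also the only sample from mice of 2 months, so its age and its identity as a sample cannot be told apart. The arrays lay in 2 rows of 1 slide. Row 1 held Adult array 1 and Young arrays 1 and 2, and row 2 held Adult arrays 2 and 3 and Young array 3. Each row thus had 1 group on a single array, so row and array cannot be told apart. Within row 1 the median histone difference was -1.43 (35 of 44 negative) and within row 2 it was -0.70 (31 of 44), and 18 genes were lower with the row as a block.

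**Figure D4:**
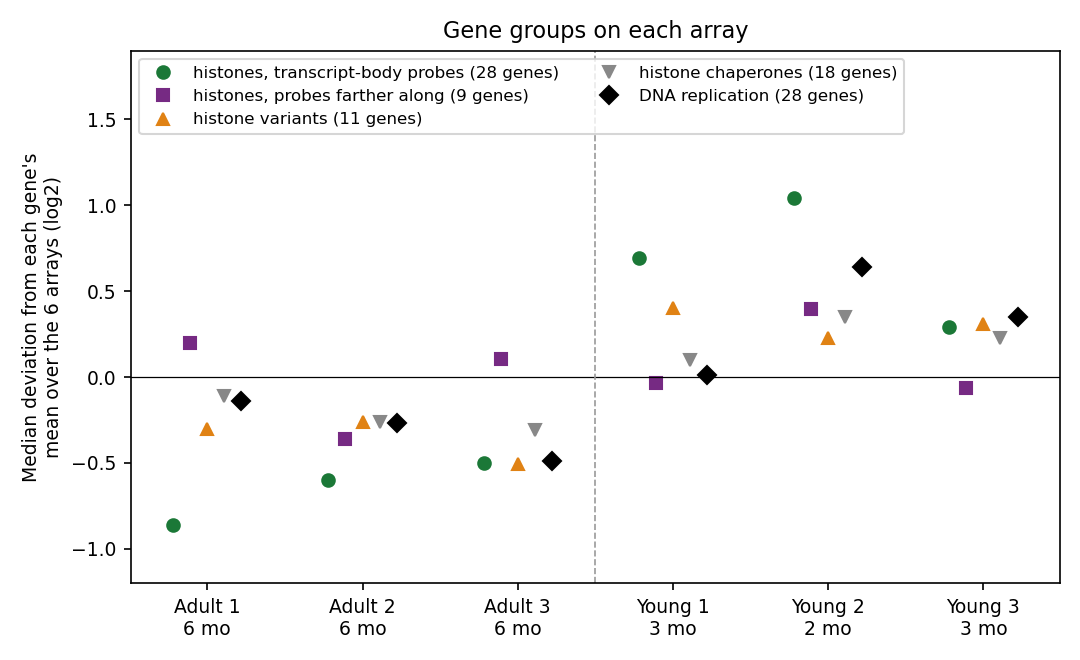
For each array, points give the median over the genes of a group of the deviation (log2) from the gene's mean over the 6 arrays. Histone genes read in the transcript body run between -0.86 on Adult 1 and 1.04 on Young 2, and those read farther along between -0.36 and 0.39.

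Histone variants and relatives whose genes carry names outside the Hist1 to Hist4 series also had lower members, and most of them are made outside of DNA replication too. Of 11 genes tested, 3 were lower in Adult and none was higher, against 8.44% and 20.0% of all genes, with a median of -0.80. H2afv, a form of H2A.Z, was at 2.32, 2.47 and 2.05 in Adult and at 3.38, 3.41 and 3.47 in Young. Its groups stood apart, with a difference of -1.14 ± 0.19 (adjusted p = 0.0217). H2afj differed by -1.28 (adjusted p = 0.0268) and H3f3a, which encodes H3.3, by -0.83 (adjusted p = 0.0315). H2afy, which encodes macroH2A, was at -0.80 and did not pass (adjusted p = 0.0583).

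Of 16 genes tested that make or process histone mRNA, 2 were lower and 1 was higher in Adult, against 8.44% and 20.0% of all genes, and the median was -0.07. Slbp, the stem-loop binding protein, was at 2.37, 1.68 and 2.05 in Adult and at 2.26, 2.50 and 2.37 in Young. Those ranges overlapped (-0.34 ± 0.23, adjusted p = 0.277). Lsm10 and Lsm11 encode the 2 proteins particular to the U7 particle, which guides the trimming of histone pre-mRNA, and they went opposite ways. Lsm10 was at -1.59, -2.01 and -1.47 in Adult and at -0.68, -0.36 and -0.68 in Young, and Lsm11 was at -2.49, -2.72 and -2.30 in Adult and at -4.19, -3.23 and -3.47 in Young. Neither overlapped between groups, with differences of -1.12 ± 0.22 (adjusted p = 0.0266) and 1.13 ± 0.30 (adjusted p = 0.0407). Cdk2, a kinase that drives entry into S phase, differed by -1.55 (adjusted p = 0.0292). Cpsf3, the nuclease that cuts the pre-mRNA, was at -0.77 and did not pass (adjusted p = 0.0561).

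Of 18 histone chaperone genes, which carry histones to DNA, 3 were lower in Adult and none was higher, against 8.44% and 20.0% of all genes (median -0.46). They were Rbbp4 (-1.04, adjusted p = 0.0372), a histone-binding subunit of chromatin assembly factor 1, Nap1l4 (-0.75, adjusted p = 0.0360) and Atrx (-0.70, adjusted p = 0.0413). Rbbp7, a relative of Rbbp4, was at -0.67 (adjusted p = 0.0539).

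Of 28 DNA replication genes tested, 8 were lower and 2 higher in Adult, against 8.44% and 20.0% of all genes, with a median of -0.69. Mki67, the proliferation marker Ki-67, was at -2.29, -2.77 and -2.39 in Adult and at 1.30, 2.01 and 0.30 in Young. The groups stood far apart (-3.69 ± 0.45, adjusted p = 0.0151), and the order of the Young arrays was that of the histones. Mcm2, a subunit of the replicative helicase, differed by -1.98 (adjusted p = 0.0193) and Fen1, the flap nuclease, by -1.0 (adjusted p = 0.0246). Tyms, thymidylate synthase, was higher by 1.31 (adjusted p = 0.0268). Over the list the median deviation was -0.14, -0.27 and -0.49 on Adult arrays 1, 2 and 3 and 0.01, 0.64 and 0.35 on Young arrays 1, 2 and 3. That order was not that of the histones, which had Adult array 1 lowest in Adult and Young array 3 lowest in Young. Young array 2 was the highest in both.

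Marker genes of the sorted cells and of other cells that muscle holds also moved. Pax7, which defines satellite cells, was at 3.66, 3.51 and 3.05 in Adult and at 3.89, 3.44 and 3.92 in Young. For each marker count here, 8.44% of all genes were lower and 20.0% higher in Adult. Of 10 satellite cell markers, 5 were lower in Adult and none was higher. Itga7, the integrin of the sort, was among them (-1.08, adjusted p = 0.0230), and Pax7 (-0.34, adjusted p = 0.304), Myf5 (-0.37, adjusted p = 0.222) and Cd34 (-0.18, adjusted p = 0.522) did not pass, with the sign of Cd34 turning under quantile normalization, the authors' value table and cyclic loess. Myofibre markers, 4 lower and 1 higher of 9, summed to 18.8 to 24.0 times the array's 75th percentile in Adult and to 35.3 to 51.6 times in Young. Mural cell markers were 1 lower and 4 higher of 6, with sums of 14.1 to 22.3 in Adult and 14.4 to 19.4 in Young. The Young sums came mostly from Acta2, which was lower in Adult (-2.10), while Kcnj8 was 12.0-fold, Abcc9 5.17-fold, Pdgfrb 4.38-fold and Rgs5 3.65-fold higher in Adult. Leukocyte markers were 3 higher of 8, with sums of 378.0 to 402.2 in Adult and 219.3 to 424.9 in Young. Fibro-adipogenic markers were 1 lower of 5, with sums of 14.0 to 16.7 in Adult and 19.1 to 27.6 in Young, and their defining gene Pdgfra was too dim to test. Adipocyte markers were 2 higher of 4, with sums of 3.38 to 16.6 in Adult and 6.81 to 10.6 in Young. These sums came mostly from Fabp4, which did not pass, while Adipoq was 8.78-fold and Cfd 4.74-fold higher in Adult. No endothelial marker of 6 and no erythroid marker of 2 passed. The part of any of these cells in the histone values was not tested.

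Since the genes lay lower together, their promoters were searched for 3 motifs on both strands. RefSeq promoters of GRCm38.p6, from 250 bases before to 50 after the start, were found for 43 of the 49 genes, in 44 entries. The letters CCAAT were in 38 of 44 (86.4%), against 37.4% of all 32851 promoters, and the letters TATAAA in 26 of 44 (59.1%), against 13.6%. The octamer ATTTGCAT, the site of Oct factors, was in 13 of 44 (29.5%), against 1.74% of all promoters. The octamer was in 7 of 14 H2A and 6 of 10 H2B promoters and in no H1, H3 or H4 promoter, and CCAAT was in 2 of 8 H4 promoters and in each promoter of the other types. None of the 3 motifs contains another, and a promoter can hold several. The promoters of H2ac4 (Hist1h2ab, chr13:23750838-23751137, plus strand) and H2bc3 (Hist1h2bb, chr13:23746484-23746783, plus strand), the H2A and H2B genes with the lowest differences, hold all 3, in capitals.
H2ac4: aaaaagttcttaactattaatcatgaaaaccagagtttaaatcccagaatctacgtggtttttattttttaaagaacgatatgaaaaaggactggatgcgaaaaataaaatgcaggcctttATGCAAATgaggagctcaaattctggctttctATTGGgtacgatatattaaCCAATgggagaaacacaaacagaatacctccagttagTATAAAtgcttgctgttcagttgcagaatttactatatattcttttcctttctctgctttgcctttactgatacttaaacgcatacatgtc
H2bc3: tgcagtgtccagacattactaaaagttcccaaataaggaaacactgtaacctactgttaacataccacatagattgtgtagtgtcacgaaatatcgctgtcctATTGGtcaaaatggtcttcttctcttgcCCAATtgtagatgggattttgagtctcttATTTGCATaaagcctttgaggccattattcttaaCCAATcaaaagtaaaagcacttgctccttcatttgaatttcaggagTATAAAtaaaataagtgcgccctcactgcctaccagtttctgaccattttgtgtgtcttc
By call, CCAAT was in 19 of 22 promoters of genes lower in Adult and in 15 of 18 of genes that did not pass, the octamer in 7 of 22 and 5 of 18, and TATAAA in 14 of 22 and 9 of 18.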

How the data were processed

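Each array had 62976 spots, and its image was read by Feature Extraction (version 10.7.3.1, per the file headers). The deposited intensity of a spot was background-subtracted and detrended within the array, with no scaling between arrays, per the file headers, and flags for spots above background or outlying came from the deposited files too. The authors also deposited normalized log2 values, and how these were made is not given in sources used here. Over the probes used, the column medians of these were 7.69 to 7.73, and within each array they rose with the scanner signal (Pearson's r 0.955 to 0.963 across probes). They served only as an alternative.

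After removal of 3671 control spots and of outlier spots, 55681 probes remained, with no saturated spot. The processed signal was put on the log2 scale and each array's 75th percentile subtracted. A probe had to be well above background on 3 of the 6 arrays, the brightest probe stood for a gene, and limma 3.58.1 in R 4.3.3 (with the data.table package, version 1.17.8) compared Adult with Young over all genes, with Benjamini-Hochberg adjustment at 0.05. The fit was tested on simulated data. A bound ("at least") uses the dimmest signal well above background on each array. Symbols came from GRCm38.p6 (26300 probes by accession, 2044 by symbol, 355 by older symbol, and 26982 kept the name of the files), and positions are those of the files, on mm9. Marker sums are on the linear scale.

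The members and gene lists were chosen with earlier results of these data known. Named genes were each histone gene past the threshold, the 2 brightest and the 2 of smallest p of each type, genes with conflicting probes or not above background in a group, up to 4 genes of smallest p per list, and Pax7, Itga7, Myf5, Cd34 and Mki67. The other histone genes, Slbp and Abcc9 were named after their values were seen. Alternatives covered scaling, background correction, the filter, the probe choice, the variance model, array weights, blocks and leaving out each array. All arrays shared 1 slide and 1 scan. The deviations of samples with the same replicate number correlated at -0.0023, -0.09 and -0.14, so the numbers were not taken as pairs.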

Additional observations from a re-analysis of the deposited data

How the results depend on the processing

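The median histone difference was negative under each setting run, with 31 to 40 of the 37 to 49 genes tested below 0. It was -1.61 with median scaling and -1.22 to -0.95 when single arrays were left out. Relative to the median of all genes, which was 0.30 in the values reported, -0.24 with median scaling and -0.06 with quantile normalization, the histone median was -1.38, -1.38 and -1.10, and -0.87 with the authors' value table. The 23 histone genes lower in Adult became 18 to 30 under other scalings, background corrections, filters, probe choices, variance models and the row block, 0 with the replicate block, and 0 to 20 when single arrays were left out. The single gene higher in Adult became 0 with median scaling, quantile normalization, cyclic loess (chosen after seeing the data), the row block, the replicate block and any array left out, 2 with the authors' value table or array weights, 3 with the percentile over probes detected on all arrays or with those probes alone, and 4 with normexp or trended robust moderation. The replicate block called 0 genes of any kind (12724 had an unadjusted p under 0.05, 25 of them histone genes lower in Adult), and the shared numbers gave no pairing. Over all genes, the 6426 higher and 2708 lower in Adult became 3445 and 8809 with median scaling, 2867 and 2750 with quantile normalization, 3128 and 2146 with cyclic loess, 4422 and 4089 with the authors' value table, 7879 and 1786 with the percentile over probes detected on all arrays, 8615 and 4108 with normexp, 7625 and 4431 with trended robust moderation, 4754 and 1200 with the row block, and 275 to 6420 and 22 to 1260 when single arrays were left out. Hist1h4i turned to -0.16 with median scaling, -0.030 with quantile normalization and -1.35 with its unplaced probe left out (chosen after seeing the data), and Cd34 to 0.045 with quantile normalization, 0.047 with the authors' value table and 0.072 with cyclic loess. Leaving out an array leaves fewer samples, and the cause of the other changes was not tested. Probes near background, mostly at the stem-loop or farther along, had the widest errors.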
